A study of Rattus norvegicus with 12 samples.

Results

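Back muscle of Long-Evans rats, an outbred laboratory strain, was profiled by bulk RNA-seq in a study of the tissue response to an implanted or injected material. The deposited back muscle table holds 6 of the 12 columns of values in the series, and these 6 were compared here by the code in their names: 3 columns coded ST and 3 coded WT. The sample labels give 3 back muscle samples injected with a magnetic fluid (MFIT) and 3 controls without treatment or with sham surgery (NT), all of wild-type genotype. Neither code is a treatment label of any sample, so which code holds the injected muscle is unknown, and every difference is stated as ST minus WT only. The series speaks of tissue taken on days 7 and 14, in triplicate for each condition, but the labels give no day for any sample, so code, treatment and day cannot be told apart. The animals' age is not given in the sources used here.

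Skeletal muscle that has been cut or injected is known to pass through a phase in which neutrophils and then macrophages clear debris. Satellite cells, the stem cells of muscle, divide and fuse into new fibres, and fibroblasts lay down matrix that either resolves or stays as scar. A foreign material can prolong the macrophage phase and the deposition of collagen around it. The series states its aim as measuring such immune, inflammatory and fibrotic responses.

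The genes could not be named. All 56953 gene rows carry mouse Ensembl identifiers, the tissue is labelled as rat, and 0 of the identifiers were found in the rat gene table used here, which lists no Ensembl identifiers. The lists of inflammatory, fibrotic, iron-handling, fibre-type and cell type genes drawn up for this tissue were therefore not tested, and the identity of the tissue was not checked against its markers. Genes are given by identifier, at most 2 in each direction. Their position and any near-identical copies that could share their reads were not analysed here.

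The 6 back muscle columns held between 3329994 and 7164682 reads counted in genes. Between 52.4% and 61.0% of the reads of a column lay in its unmapped row and between 31.0% and 36.4% in genes. The share of unmapped reads was 57.4% ± 4.49 in the ST columns and 56.5% ± 1.69 in the WT columns (SD, n = 3 each), a difference below the spread between columns (exact permutation test, two-sided p = 0.8, with 0.1 the smallest p that 3 columns against 3 allow). Without column ST 1, which stood apart in its profile, the difference was 3.41 percentage points, higher in ST (exact permutation test, two-sided p = 0.1, again the smallest possible). The sign was not stable, since leaving out ST 2 or WT 2 instead gave -0.91 and -0.07 percentage points. Of the genes listed, 38619 had no read in any of the 6 columns, and 9466 passed the filter on low counts and were tested.

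Column ST 1 stood apart from the others of its code. Columns ST 2 and ST 3 lay at 40.3 and 32.1 on the first principal component of log2 CPM (counts scaled to a common library size), which held 55.9% of the variance. Column ST 1 lay at -14.7, beside the WT columns, which ran from -22.1 to -17.0.

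**Figure D1:**
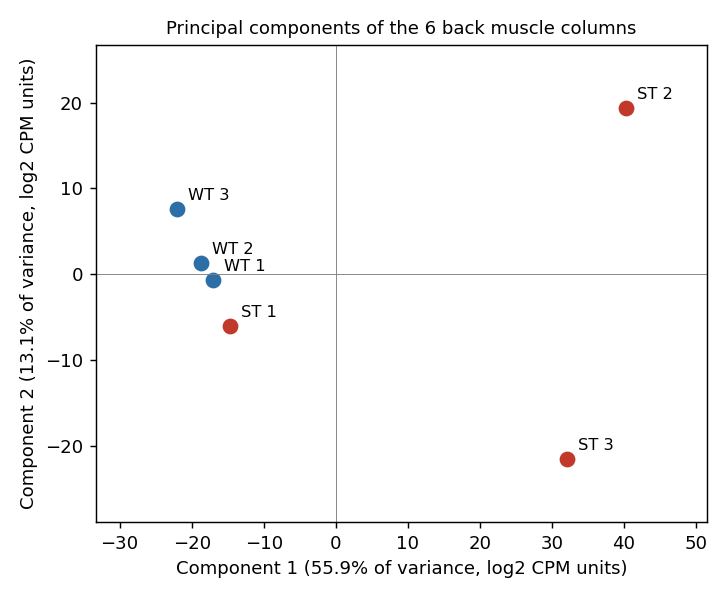
Position of the 6 back muscle columns (red, ST; blue, WT) on the first and second principal components of log2 CPM over the 9466 genes tested. ST 1 at -14.7 lies close to the 3 WT columns, while ST 2 at 40.3 and ST 3 at 32.1 lie far from them and apart from each other on the second component.

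The same order was seen gene by gene. The median gene differed between ST 1 and a WT column by 0.206 to 0.209 on the log2 CPM scale, close to the 0.189 to 0.192 between any 2 WT columns. Between ST 1 and the other ST columns the median difference was 0.306 (ST 2) and 0.303 (ST 3). Genes that differed by more than 2-fold made up 2.31% to 2.97% of those tested between ST 1 and a WT column, and 8.06% and 6.80% between ST 1 and ST 2 or ST 3. ST 2 and ST 3 differed from each other at 3.77% of genes and from the WT columns at 8.78% to 10.5%. The spread among the ST columns was wider than among the WT columns: the median SD of a gene was 0.25 in ST and 0.17 in WT on the log2 CPM scale. In leg muscle the ST columns were not the wider group, with a median SD of 0.16 in ST and 0.18 in WT.

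The makeup of the reads followed this split. For every 100 reads counted in genes, reads that fell on more than one gene (the ambiguous row) numbered 20.1 in ST 1 and 20.1 to 20.8 in the WT columns, against 15.2 in ST 2 and 14.0 in ST 3. The 10 most abundant genes of each column took 38.8% of the gene reads in ST 1 and 36.6% to 38.1% in the WT columns, against 31.0% in ST 2 and 32.5% in ST 3. The part of read makeup in the differences between the codes was not tested. In this bulk tissue a change in the share of a cell type and a change in RNA per cell cannot be told apart.

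Of the 9466 genes tested in back muscle, 2 passed an adjusted p of 0.05 (0.0211%; edgeR's quasi-likelihood test with Benjamini-Hochberg adjustment). Both were higher in ST, and 0 were lower. At an unadjusted p under 0.05, 918 genes were higher and 756 lower in ST, 17.7% of those tested in all. With library totals as the only scaling the split at that unadjusted p became 1566 higher and 316 lower, and the median log2 fold change of all genes moved from 0.00 to 0.18. The 2 called genes stayed higher in ST under every scaling run.

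**Figure D2:**
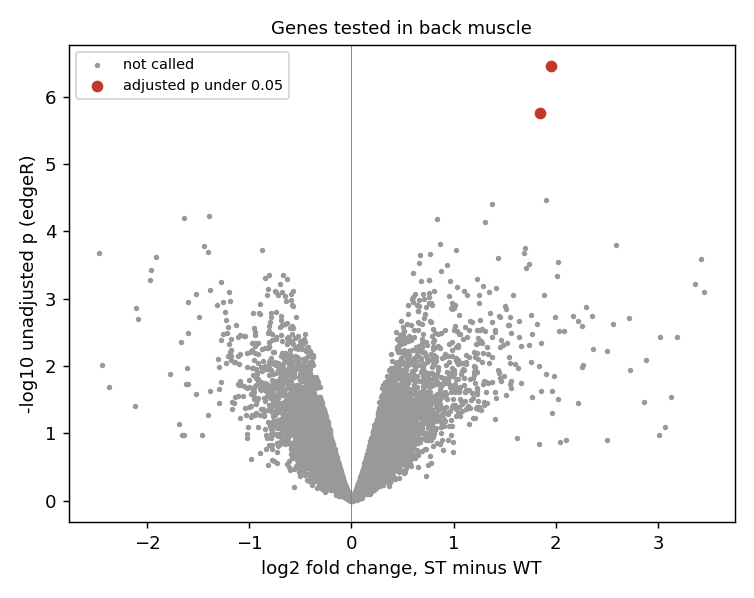
Log2 fold change (ST minus WT) against -log10 of the unadjusted edgeR p for each of the 9466 genes tested in back muscle. The 2 called genes (red) stand above all others at log2 fold changes of 1.95 and 1.84, while many grey points with larger fold changes have larger p.

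ENSMUSG00000024747.4 was the gene with the smallest p. Its level was 24.8, 27.4 and 30.6 CPM in ST 1, ST 2 and ST 3, from 164, 105 and 172 reads. In WT 1, WT 2 and WT 3 it was 7.15, 7.19 and 7.03 CPM, from 33, 44 and 24 reads. All 3 ST columns were high, ST 1 included, and the lowest of them was 3.45 times the highest WT column. The mean was 27.6 ± 2.91 CPM in ST and 7.12 ± 0.09 CPM in WT (SD, n = 3 each), a 3.86-fold difference (log2 fold change 1.95 ± 0.16 SE, edgeR adjusted p = 0.00332). Without ST 1 the log2 fold change was 2.01 (edgeR adjusted p = 5.86e-06).

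ENSMUSG00000053279.9 showed the same pattern at a higher level. It was measured at 67.8, 74.3 and 53.6 CPM in ST 1, ST 2 and ST 3 and at 14.3, 18.8 and 21.7 CPM in WT 1, WT 2 and WT 3. The codes did not overlap, and the lowest ST column was 2.48 times the highest WT column. The means of 65.3 ± 10.6 and 18.3 ± 3.72 CPM (SD, n = 3 each) gave a 3.58-fold difference (log2 fold change 1.84 ± 0.18 SE, edgeR adjusted p = 0.00809). Without ST 1 the log2 fold change was 1.80 (edgeR adjusted p = 1.72e-05). Whether this gene shares reads with ENSMUSG00000024747.4 was not tested, so the pair may not be separate signals. For both genes, leaving out any 1 WT column took the call away, with edgeR adjusted p from 0.0739 to 0.0760 for ENSMUSG00000024747.4 and from 0.0795 to 0.179 for ENSMUSG00000053279.9, at log2 fold changes of 1.68 or more.

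The 2 genes with the smallest p among those with a lower level in ST did not pass the test in the 6 columns. ENSMUSG00000005057.14 was at 9.69, 6.52 and 6.41 CPM in the ST columns and at 18.8, 22.7 and 18.7 CPM in the WT columns, in order of column number. Its log2 fold change was -1.40 ± 0.21 SE (edgeR adjusted p = 0.0850). ENSMUSG00000070565.12 was at 3.79, 2.61 and 3.39 CPM in ST and at 11.9, 10.6 and 8.49 CPM in WT, with a log2 fold change of -1.64 ± 0.25 SE (edgeR adjusted p = 0.0850). In neither gene did the codes overlap. Both passed without ST 1, at log2 fold changes of -1.66 (edgeR adjusted p = 0.000116) and -1.78 (edgeR adjusted p = 0.000795). The fits without ST 1 reuse the values that chose these genes and the 2 called ones, so they are no separate support. ST 1 was also singled out by its profile in the same columns. In all 4 of these genes ST 1 lay with the other ST columns and outside the range of the WT columns. That follows from how they were chosen, by the smallest p over columns that include ST 1, and says nothing about the place of ST 1 at other genes.

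**Figure D3:**
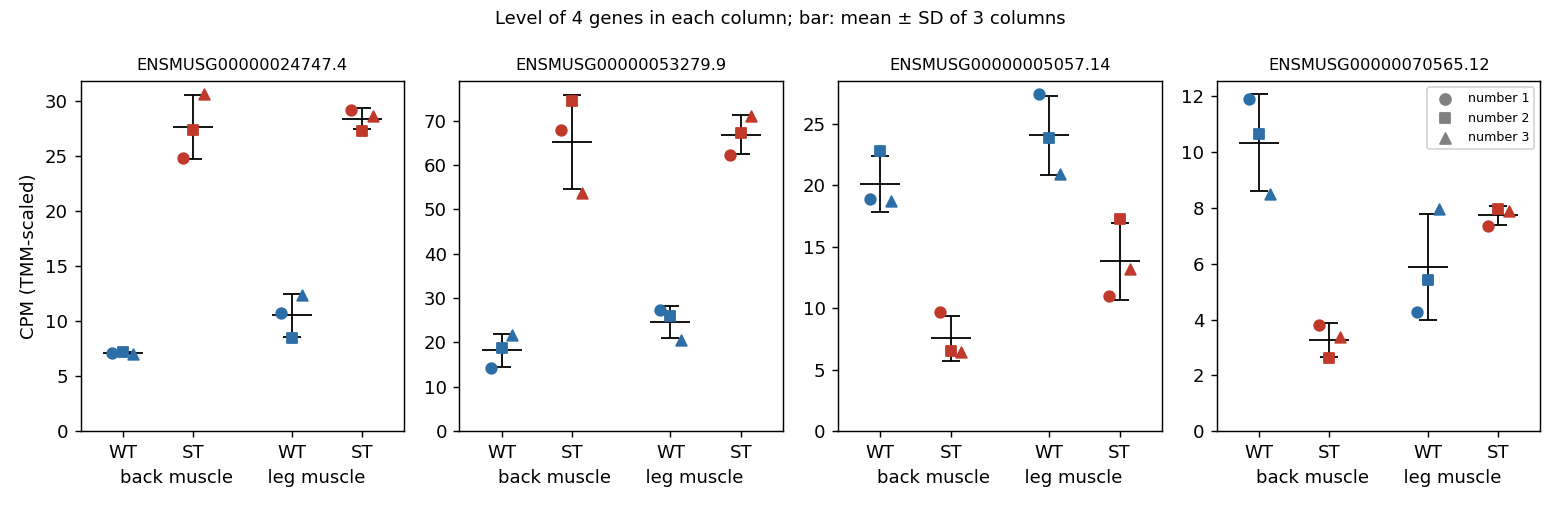
CPM of 4 genes in each column of back and leg muscle (red, ST; blue, WT; marker shape, column number), with the mean and SD of 3 columns. In back muscle the codes do not overlap for any of the 4 genes, and in leg muscle they overlap only for ENSMUSG00000070565.12.

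The count of genes called changed most when column ST 1 was left out. This raised the count from 2 to 2005 genes (20.3% of those tested), 977 higher and 1028 lower in ST. Both genes called in the 6 columns were among them. The filter on low counts was run again without ST 1, so 9861 genes were tested. Of the 2005 genes called, 1888 had passed the filter with all 6 columns. The fitted variation between columns of the same code, as a coefficient of variation, fell from 17.9% with all 6 columns to 11.7% without ST 1. Without ST 2 or ST 3 it was 16.8% and 17.5%, with 2 genes called each time. Without any 1 WT column it was 20.1% to 20.3% and 0 genes were called. In those fits 1080 to 1104 of the 9862 to 9912 genes tested had an unadjusted edgeR p under 0.05.

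**Figure D4:**
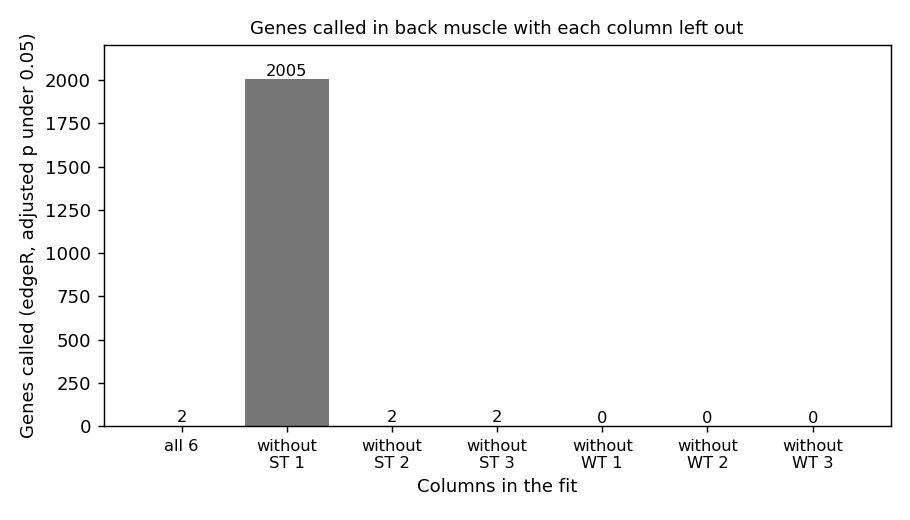
Number of genes called in back muscle (edgeR, adjusted p under 0.05) with all 6 columns and with each column left out in turn. The count is 2005 without ST 1, 2 with all columns and without ST 2 or ST 3, and 0 without any 1 WT column.

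The tools also differed on this count with all 6 columns kept. DESeq2 called 174 genes (2.39% of those it gave an adjusted p), 111 higher and 63 lower in ST, and both genes called by edgeR were among them. Fitting the back and leg tables together, so that both muscles shared 1 estimate of the spread, gave 395 genes called in back muscle (3.78%), 250 higher and 145 lower. Fitted alone, the variation between columns of a code was 17.9% in back muscle and 9.08% in leg muscle. The shared estimate therefore also rests on the less variable leg columns, and its part in the count was not tested. A limma fit that weights columns by their quality gave ST 1 the lowest weight, 0.36 against 0.79 to 1.64 for the other columns, and called 744 genes (7.86%), 328 higher and 416 lower in ST. Across these fits the 2 genes higher in ST were called each time.

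Fitted differences of more than 2-fold, counted whether or not the gene was called, were more often increases. In the 6 columns 227 genes had a fitted level more than 2-fold higher in ST and 87 more than 2-fold lower, 3.32% of the genes tested. CPM did not overlap between the codes for 1115 genes that were higher in ST and 1041 that were lower, 22.8% of the genes tested. The most abundant genes leaned the other way. Of the 10 genes with the highest mean CPM, 9 had a lower fitted level in ST, with a median log2 fold change of -0.42, against 0.00 over all genes tested, and 0 of the 10 were called. Of the 100 most abundant genes 65 were lower with TMM scaling and 55 with library totals only, with medians of -0.22 and -0.03, and 0 were called. CPM did not overlap between the codes for 1 of the 10 and 32 of the 100. The 10 most abundant genes of each column took 38.8% of gene reads in ST 1, above the 36.6% to 38.1% of the WT columns. The lean was not examined column by column, so it need not hold in ST 1. Over all genes tested, 4705 of 9466 were lower with TMM scaling and 2738 with library totals only, with medians of 0.00 and 0.18, so the most abundant genes lay below the median gene under both scalings. At the other end, 91 of the 56953 genes listed had reads in every ST column and in no WT column. They had at most 18 reads in all. Another 33 had reads in every WT column and in no ST column, with at most 8. These were too few reads for a fold change.

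Leg muscle, a separate table with 3 ST and 3 WT columns, gave a second set of libraries with columns under the same code names. The labels do not say whether leg and back muscle came from the same animals, or whether a code means the same in both tables. Both genes called in back muscle were also higher in leg ST. ENSMUSG00000024747.4 was at 29.2, 27.3 and 28.7 CPM in leg ST and at 10.8, 8.44 and 12.3 CPM in leg WT, a 2.66-fold difference (edgeR adjusted p = 3.90e-05). ENSMUSG00000053279.9 was at 62.3, 67.1 and 71.0 CPM in leg ST and at 27.4, 25.9 and 20.5 CPM in leg WT, a 2.72-fold difference (edgeR adjusted p = 2.83e-06). Neither gene's difference itself was called different between the muscles: back minus leg was 0.53 ± 0.22 SE for ENSMUSG00000024747.4 (edgeR interaction, adjusted p = 0.433) and 0.39 ± 0.23 SE for ENSMUSG00000053279.9 (adjusted p = 0.600), on the log2 scale.

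The genes with lower levels in back ST were split in leg muscle. ENSMUSG00000005057.14 was lower in leg ST too, at 11.0, 17.2 and 13.2 CPM against 27.4, 23.8 and 20.9 CPM in leg WT (log2 fold change -0.82 ± 0.18 SE, edgeR adjusted p = 0.00817). ENSMUSG00000070565.12 was at 7.35, 7.96 and 7.89 CPM in leg ST and at 4.26, 5.43 and 7.96 CPM in leg WT, where the codes overlapped (log2 fold change 0.36 ± 0.25 SE, edgeR adjusted p = 0.438). Its back minus leg difference was -2.01 ± 0.35 SE on the log2 scale and did not pass across all genes (edgeR interaction, adjusted p = 0.122). Without column ST 1 of back muscle that difference was -2.14 and passed (edgeR interaction, adjusted p = 0.00154). The gene was named for its small p in back muscle, so this difference rests in part on the values that chose it.

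Over all genes, 0 of 10450 differed between the muscles in their ST minus WT difference (edgeR interaction, adjusted p under 0.05), with 1074 (10.3%) at an unadjusted p under 0.05. Without ST 1 of back muscle the interaction called 662 of the 10748 genes tested. Leaving out any other single column, of either muscle, left it at 0.

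The edgeR test called 694 of 9805 genes in leg muscle (7.08%), 275 higher and 419 lower in leg ST. Of the 275 higher genes, 243 had a higher mean CPM in back ST and 32 a lower one, counting every gene whether or not it passed the filter in back muscle (230 did). Of the 419 lower genes, 364 had a lower mean CPM in back ST and 55 a higher one (416 passed the filter). Among those that passed, the median log2 fold change in back muscle was 0.61 for the genes higher in leg ST and -0.42 for those lower, against 0.00 over the 9238 genes tested in both muscles, of which 50.5% were higher in back ST. Without ST 1 these medians in back muscle were 0.78 and -0.62. Only 2 of these leg genes, the pair described above, were called in back muscle with all 6 columns. Across the 9238 genes, which are not independent replicates, the log2 fold changes of the muscles had a Pearson r of 0.38, and of 0.40 without ST 1. The tables share no columns, but read makeup differed between the codes in leg muscle too. The 10 most abundant genes of each column took 27.1% to 28.6% of gene reads in leg ST and 30.3% to 31.3% in leg WT. Ambiguous reads per 100 gene reads overlapped, at 16.5 to 17.9 in leg ST and 17.2 to 18.6 in leg WT. The part of read makeup in the shared direction was not tested.

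**Figure D5:**
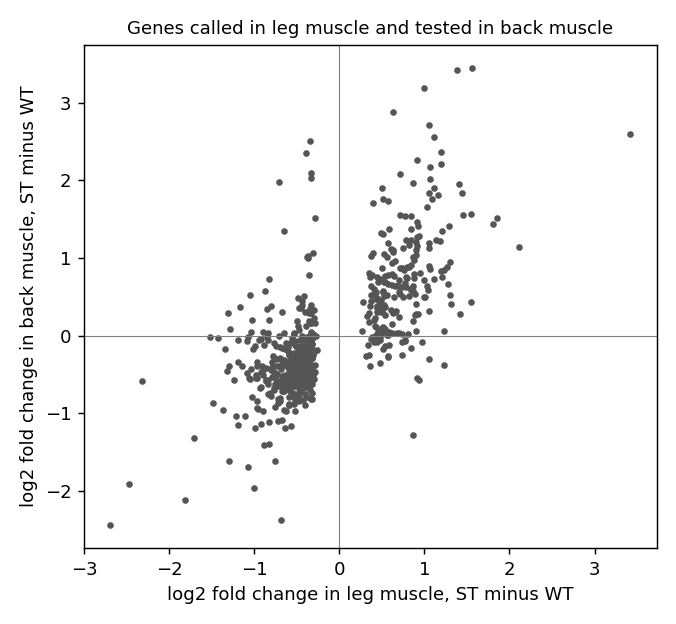
Log2 fold change (ST minus WT) in back muscle against that in leg muscle for the genes called in leg muscle and tested in back muscle (230 higher and 416 lower in leg ST). Most points lie in the lower left and upper right, where the direction is the same in both muscles: 199 of the 230 higher genes and 360 of the 416 lower genes.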

How the data were processed

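Total RNA of rat muscle was isolated on spin columns, and an outside provider prepared and read paired-end libraries, per the labels' protocols. The submitters' processing notes list STAR and DESeq2, and give no version. The alignment build and annotation were not named in the sources used here, though every gene row carries a mouse Ensembl identifier. How far levels and unmapped reads depend on counting reads labelled rat on mouse genes was not tested. Deposited tables hold raw read counts per gene, one table per muscle, and 4 rows of read classes that were dropped from library sizes and tests. Columns were matched to a muscle by name, not to a sample or treatment. No source ties columns to animals, so p-values measure the spread between columns, which may be technical.

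Counts were tested with edgeR 4.0.16 in R 4.3.3 (filterByExpr, TMM scaling, glmQLFit and glmQLFTest), for ST against WT within back muscle, with genes called at a Benjamini-Hochberg adjusted p under 0.05. The SE is the log2 fold change divided by the square root of the test's F. CPM use the TMM scaling. DESeq2 1.42.0 and limma 3.58.1 were alternatives. The test was checked on simulated counts drawn without a column that stands apart as ST 1 does, so that case was not checked. The interaction of code and muscle was fitted on all 12 columns. No 2 columns were identical or within sampling noise of each other (the smallest chi-square per degree of freedom between columns of a code was 2.07). Named identifiers are, by rule, the 2 with the smallest p in each direction. The comparison and the rules were chosen with earlier results of these data known.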

Additional observations from a re-analysis of the deposited data

How the results depend on the processing

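The count of 2 genes called in back muscle was the same with RLE size factors, library totals, a filter of 1 CPM in at least 3 columns, limma-voom, an adjusted p under 0.01, a test against a 1.5-fold change and a robust edgeR fit. It became 8 at an adjusted p under 0.10, 174 with DESeq2, 395 with both tables in one fit, 744 with limma-voom and column quality weights and 877 without a filter on low counts, of which 777 had passed the filter. The cause of these changes was not tested. The robust fit and the quality weights were chosen after seeing the data. Leaving out 1 column gave 0 to 2005 genes for back muscle and 0 to 662 for the difference between the muscles. Leaving out 1 column moved the difference in unmapped share from -0.906 to 3.409 percentage points, so its sign turned.

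With the replicate block (column number) 1 gene was called in back muscle, ENSMUSG00000024747.4, and 0 in the difference between the muscles. The numbers were not found to pair the columns: deviations of same-numbered ST and WT columns of back muscle correlated at -0.126, -0.004 and -0.120, and no number is said to mark a shared animal or day.

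Leaving out mitochondrially encoded genes was not run, because the genes could not be named. Depth limits genes such as ENSMUSG00000070565.12, which had 10 to 65 reads per back muscle column.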
